A study of Mus musculus with 12 samples.

Results

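The 10 genes of actin filament turnover were followed here through 12 RNA-Seq libraries of mouse heart: the filament-severing proteins destrin (Dstn) and cofilin 1 and 2 (Cfl1, Cfl2), their cofactor Wdr1, the cyclase-associated proteins Cap1 and Cap2, the profilins Pfn1 and Pfn2, and the beta-thymosins Tmsb4x and Tmsb10. They were found by gene symbol and make up 10 of the 51826 entries of the count table. Dstn was selected on its rise in the ventricles of these same mice, that is on its ventricular counts in CUG960 against control libraries, so its ventricular values are given as a description with no test, while its atrial values come from other libraries of the same animals and were tested.

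Both chambers were sampled from each of 6 FvB females aged 10 weeks, 3 of them CUG960 +dox and 3 of them MHCrtTA +dox controls. Every mouse was hemizygous for the MHCrtTA transgene, in which the Myh6 promoter drives the doxycycline-dependent activator in heart muscle cells, and every mouse received doxycycline from postnatal day 1. The CUG960 mice also carried the TREDT960I transgene, homozygous, from which doxycycline induces an RNA with expanded, interrupted CUG repeats, the RNA that causes myotonic dystrophy. The controls lacked that transgene, so the comparison covers the whole transgene, and other founder lines were not analysed here. Atria and ventricles are named by mouse, V327, V333 and V334 for controls and V119, V120 and V123 for CUG960. Total counts ran from 116127966 to 160676189 per library. Control libraries were deeper than all CUG960 libraries in atria and shallower than all of them in ventricles. Within a chamber depth and genotype therefore cannot be told apart, while the order of depth was opposite between chambers. Mitochondrially encoded transcripts took 19.6% to 20.5% of counts in control ventricles and 15.3% to 18.4% in CUG960 ventricles. In atria they took 11.8% to 12.2% in controls and 10.9% to 11.98% in CUG960.

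Actin filaments grow at the barbed end and lose subunits toward the pointed end. Destrin, also called actin-depolymerizing factor (ADF), and the cofilins bind aged filaments and cut them, Wdr1 (the mammalian AIP1) speeds up the disassembly of filaments that carry cofilin, cyclase-associated proteins help recharge the released monomers with ATP, profilins deliver monomers to growing ends, and beta-thymosins hold monomers in reserve. In striated muscle Cfl2 is the main cofilin and is needed to keep thin filaments ordered, Cap2 is the form enriched in heart and skeletal muscle, and Dstn and Cfl1 are widely expressed.

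The ADF/cofilins are switched off when LIM kinases or TES kinases phosphorylate a serine just after the start, and slingshot phosphatases reverse this. The coding sequences are shown because the 3 genes, whose counts are compared below, share that site but otherwise differ enough in sequence for reads to be told apart. The first 45 coding bases (15 codons, GENCODE M21 annotation of GRCm38) follow, with the codon of that serine in capitals.
Dstn: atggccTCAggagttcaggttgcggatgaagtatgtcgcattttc
Cfl1: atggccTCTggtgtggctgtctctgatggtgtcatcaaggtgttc
Cfl2: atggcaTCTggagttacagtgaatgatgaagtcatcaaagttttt
In this stretch Dstn matched Cfl1 at 25 of 45 bases and Cfl2 at 27, and the cofilins matched each other at 32. Over the whole aligned coding sequence Dstn was 69.1% identical to Cfl1 and 67.1% to Cfl2, and Cfl1 and Cfl2 were 71.5% identical. Near-identical copies elsewhere in the genome held few reads. Entries with at least 95% identity to a transcript of the gene had 0.0574% as many counts as Cfl1 and 0.188% as many as Tmsb10, and none was found in the table for the other 8 genes.

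Dstn lies on chromosome 2 (chr2:143915320-143943324, plus strand, 4 exons), Cfl1 on chromosome 19 (chr19:5490455-5495201, plus strand), Cfl2 on chromosome 12 (chr12:54858809-54862877, minus strand) and Wdr1 on chromosome 5 (chr5:38526813-38563221, minus strand). Dstn and Wdr1 are the pair of genes that moved furthest, in opposite directions, and their promoters are shown for that reason, from 250 bases before to 50 bases after the RefSeq start on GRCm38.p6, with GC boxes (GGGCGG on either strand, matches allowed to overlap) in capitals. The Dstn promoter is chr2:143915081-143915380 on the plus strand and the Wdr1 promoter is chr5:38561650-38561949 on the minus strand, where the RefSeq start lies inside the longer gene span of GENCODE.
Dstn promoter: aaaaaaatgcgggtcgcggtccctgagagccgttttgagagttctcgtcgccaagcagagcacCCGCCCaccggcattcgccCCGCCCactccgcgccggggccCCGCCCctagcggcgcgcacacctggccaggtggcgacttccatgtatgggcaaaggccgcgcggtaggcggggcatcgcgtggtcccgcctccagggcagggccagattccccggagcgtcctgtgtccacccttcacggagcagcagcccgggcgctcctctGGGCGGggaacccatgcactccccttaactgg
Wdr1 promoter: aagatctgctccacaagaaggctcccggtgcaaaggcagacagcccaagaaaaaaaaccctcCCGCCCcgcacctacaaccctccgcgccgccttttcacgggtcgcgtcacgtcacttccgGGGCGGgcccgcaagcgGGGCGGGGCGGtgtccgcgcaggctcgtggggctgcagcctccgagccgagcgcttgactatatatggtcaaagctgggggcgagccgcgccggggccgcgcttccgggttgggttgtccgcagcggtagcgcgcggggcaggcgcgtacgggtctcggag
Both promoters were GC-rich, at 69.7% for Dstn and 69.3% for Wdr1 against a median of 52.7% over 32851 RefSeq promoters, and each held 4 GC boxes. A GC box was present in 35.7% of all promoters. Neither window held CCAAT (in 37.4% of promoters), TATAAA (in 13.6%) or an exact CArG box of serum response factor (in 1.63%). The CArG box was searched as CCWWWWWWGG, with W for A or T, and near matches to it were not counted. A match or its absence describes these letters only.

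Dstn transcripts were more abundant in CUG960 hearts in both chambers. Levels are CPM, a gene's counts relative to the library's total, after scaling by trimmed mean of M values (TMM), which compares libraries for a gene but not genes of different length. In atria Dstn measured 251, 223 and 223 CPM in controls V327, V333 and V334, and 473, 411 and 482 CPM in CUG960 mice V119, V120 and V123. The lowest CUG960 atrium was above the highest control atrium. The means were 232 ± 16.1 and 456 ± 38.7 CPM (SD, n = 3 each), a log2 fold change of 0.97 (SE 0.08), or 1.96-fold, with an adjusted p of 4.25e-04 (edgeR quasi-likelihood test, Benjamini-Hochberg over 17650 genes). In ventricles Dstn measured 133, 141 and 129 CPM in controls and 382, 370.1 and 414 CPM in CUG960 mice. These groups were further apart than the atrial ones, with means of 134 ± 5.91 and 388 ± 22.5 CPM and a log2 fold change of 1.54 (SE 0.08), or 2.90-fold, given without a test because this rise chose the gene. The difference between the ventricular and atrial changes was 0.56 on the log2 scale (SE 0.11), also a description.

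The chamber pattern of Dstn differed between genotypes. In controls every atrium had more Dstn than every ventricle, and the atrial mean was 1.73 times the ventricular mean. In CUG960 mice the ratio of means was 1.17 and the highest ventricle, 414 CPM in V123, was above the lowest atrium, 411 CPM in V120. The ventricular mean of CUG960 mice was 1.67 times the atrial mean of controls. By CPM, Dstn stood at rank 481 of 17650 genes tested in control atria and at rank 171 in CUG960 atria. In ventricles it stood at rank 1092 of 16909 in controls and 312 in CUG960 mice, which restates the rise that chose the gene. These ranks, and the limit of 100 CPM used next, take no account of gene length and so give no order of transcript abundance. Among the 1363 genes with at least 100 CPM on average in control atria, 1 other had a log2 fold change at least as high as that of Dstn, Mylk4 at 1.58, singled out after its value was seen. Among the 1512 such genes in ventricles none other did, which describes the choice of the gene and supports nothing further.

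**Figure D1:**
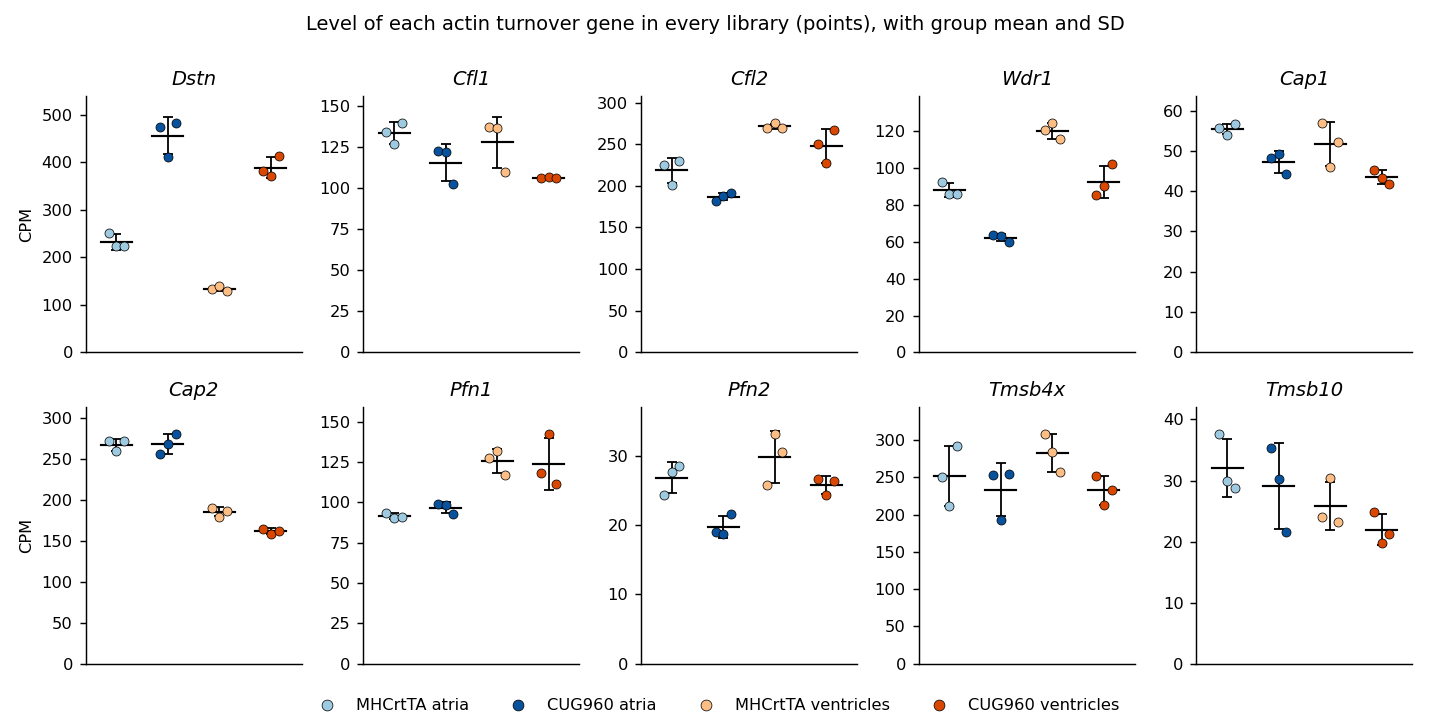
Level of each gene in every library, in CPM on an axis that starts at 0, with 3 points (mice) per group, a line at the group mean and bars of 1 SD. For Dstn all CUG960 libraries lie above the controls of the same chamber, at 411 to 482 CPM against 223 to 251 CPM in atria, and for Wdr1 all lie below them.

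Across the 10 genes, 4 changed in atria: Dstn rose, and Wdr1, Cap1 and Pfn2 fell. Of all genes tested in atria 14.6% passed the same threshold of adjusted p under 0.05, so 4 of 10 stands above that share, but the genes were chosen with results in view. When a fold change of at least 1.5 was also asked for, only Dstn remained, where 5.49% of all genes tested passed. In ventricles 1 of the other 9 genes changed, Wdr1, which fell, beside 9.94% of all genes tested, a share close to that of these genes. None of the 9 also reached a 1.5-fold change there, as 4.75% of all genes did. All 9 ventricular estimates were below 0, with a median log2 fold change of -0.24 against -0.01 over all genes tested. The atrial median over the 10 genes was -0.18 against -0.01. The CUG960 and control libraries did not overlap for 6 of the 10 genes in atria (35.7% of all genes tested) and for 6 of the 9 in ventricles (31.2%). With 3 mice a group an exact permutation test of a single gene cannot give a two-sided p below 0.1.

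**Figure D2:**
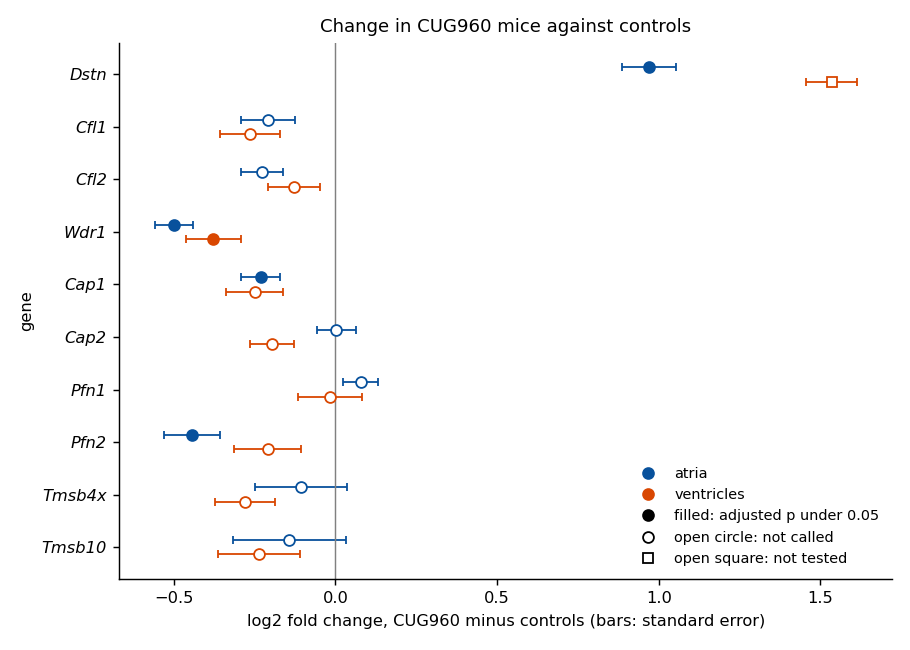
Log2 fold change of each gene in CUG960 mice against controls in atria (blue) and ventricles (orange), with bars of 1 standard error. Filled circles passed an adjusted p of 0.05, open circles did not, and the open square for Dstn in ventricles (1.54) was not tested; Dstn lies furthest to the right, at 0.97 in atria, and Wdr1 is filled in both chambers, at -0.50 and -0.38.

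Wdr1 passed the test in both chambers, alone among the 9 genes tested in both. In atria it measured 92.6, 86.1 and 85.8 CPM in controls V327, V333 and V334, and 63.5, 63.3 and 60.1 CPM in CUG960 mice V119, V120 and V123. The log2 fold change was -0.50 (SE 0.06), with an adjusted p of 0.00173 in edgeR. In ventricles the levels were 121, 124 and 116 CPM in controls against 85.3, 90.1 and 102 CPM in CUG960 mice, a log2 fold change of -0.38 (SE 0.08) and an edgeR adjusted p of 0.0235. The groups did not overlap in either chamber, and mouse V123 was the CUG960 ventricle nearest the controls. The atrial call held when any mouse was left out. The ventricular call was lost without control V327 (adjusted p 0.0832 in edgeR), control V333 (0.0528), V119 (0.0827) or V120 (0.0757), while the log2 fold change stayed between -0.46 and -0.32. The difference between the 2 changes, 0.12 on the log2 scale (SE 0.10), did not pass the test (adjusted p 0.698 in edgeR). Per kilobase of principal transcript, Dstn was at 4.26 ± 0.11 times the level of Wdr1 in control atria and at 11.8 ± 1.24 times in CUG960 atria, and at 1.80 ± 0.02 times in control ventricles and 6.81 ± 0.37 times in CUG960 ventricles (SD, n = 3 each). The ratio depends on the length taken: in control and CUG960 atria it was 12.3 and 34.1 with exon unions and 2.95 and 8.20 with the shortest coding transcripts.

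Neither cofilin passed the edgeR test in either chamber with all mice, and all estimates for them were below 0. Cfl2, the muscle cofilin, measured 225, 202 and 229 CPM in control atria and 182, 187 and 191 CPM in CUG960 atria, groups that did not overlap. Its log2 fold change of -0.23 (SE 0.07) missed the threshold, with an edgeR adjusted p of 0.0559, while DESeq2 gave 0.0241. In ventricles Cfl2 measured 269, 275 and 270.0 CPM in controls and 250.3, 227 and 267 CPM in CUG960 mice, a log2 fold change of -0.13 (SE 0.08, edgeR adjusted p 0.352). Cfl1 measured 134, 127 and 140 CPM in control atria and 122, 122 and 102 CPM in CUG960 atria, where V123 lay below the others. Its log2 fold change was -0.21 (SE 0.08, edgeR adjusted p 0.13). In ventricles Cfl1 was 137, 137 and 110 CPM in controls, with V334 low, and 106, 107 and 106 CPM in CUG960 mice, a log2 fold change of -0.26 (SE 0.09, edgeR adjusted p 0.11), which without V334 was -0.36 with an edgeR adjusted p of 0.0231.

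Dstn made up a larger share of the ADF/cofilin family in CUG960 hearts, given here as a description since Dstn was selected on these ventricles. For this comparison between genes, CPM were divided by the length of each gene's principal transcript in kilobases. In control atria Dstn held 49.6%, 48.9% and 45.9% of the family's length-scaled transcripts, and in CUG960 atria 68.5%, 65.1% and 69.9%. In control ventricles, where Cfl2 was the most abundant of the 3 at 42.6 ± 1.70%, Dstn held 31.7%, 32.7% and 32.8%. In CUG960 ventricles Dstn held 60.5%, 61.3% and 61.5% and Cfl2 25.3 ± 0.79%. The family sum was 253 ± 12.9 and 351 ± 17.6 CPM per kilobase in control and CUG960 atria, and 217 ± 9.90 and 332.8 ± 18.2 in control and CUG960 ventricles (SD, n = 3 each). The share depends on the length taken for Cfl1, whose shortest coding transcript has 771 bases and whose principal transcript has 2354. With the shortest transcripts the Dstn share was 32.9% and 52.7% in control and CUG960 atria and 21.4% and 47.7% in control and CUG960 ventricles, and Cfl1, not Cfl2, was then the most abundant in control ventricles, at 50.4%. Both lengths gave a higher Dstn share in every CUG960 library than in every control library of the same chamber.

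**Figure D3:**
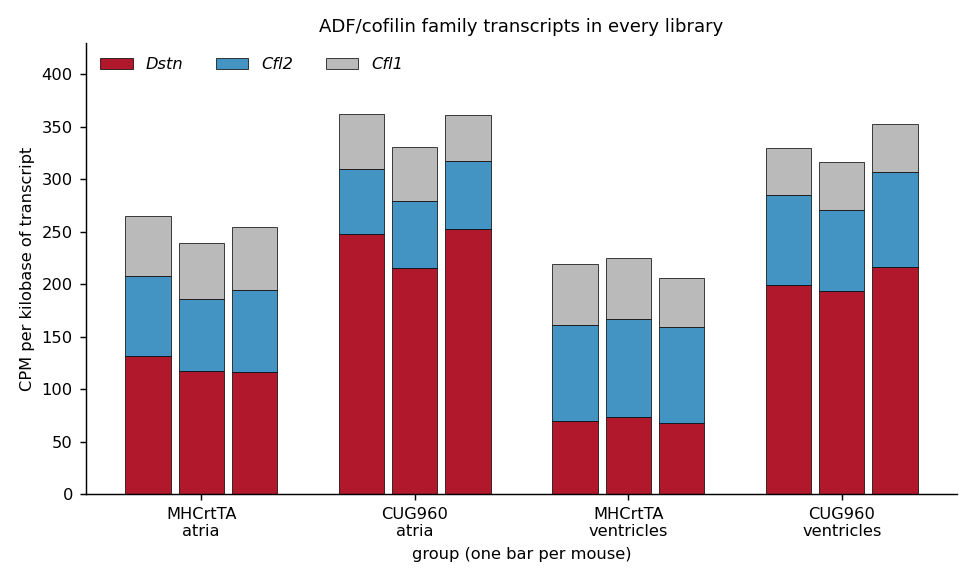
Stacked level of Dstn, Cfl2 and Cfl1 in each library, in CPM per kilobase of principal transcript, with 1 bar per mouse in the order V327, V333, V334 for controls and V119, V120, V123 for CUG960. The bars of CUG960 mice are taller (family sums of 316 to 362 against 206 to 265 in controls), and the Dstn part accounts for the added height while the Cfl1 and Cfl2 parts are not larger.

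Cap1 fell in atria, while Cap2, the form enriched in muscle, did not change detectably there. Cap1 measured 55.7, 53.9 and 56.6 CPM in control atria and 48.1, 49.3 and 44.2 CPM in CUG960 atria, groups that did not overlap. The log2 fold change was -0.23 (SE 0.06) with an edgeR adjusted p of 0.0405, and the call was lost whichever mouse was left out (adjusted p 0.0592 to 0.137 in edgeR). Its ventricular log2 fold change was -0.25 (SE 0.09, edgeR adjusted p 0.111), from 46.0 to 56.9 CPM in controls to 41.8 to 45.2 CPM in CUG960 mice. Cap2 was at 259 to 272 CPM in control atria and 256 to 280 CPM in CUG960 atria, overlapping groups with a log2 fold change of 0.00 (SE 0.06). In ventricles it measured 179 to 190 CPM in controls and 158 to 165 CPM in CUG960 mice, with no overlap, a log2 fold change of -0.20 (SE 0.07) and an edgeR adjusted p of 0.0993. The difference between these 2 changes, -0.20 (SE 0.08), had the lowest unadjusted p of the 9 genes in that comparison, 0.0259, and an edgeR adjusted p of 0.319.

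Of the profilins, Pfn2 fell in atria and the more abundant Pfn1 did not change detectably. Pfn2 measured 24.3, 27.6 and 28.5 CPM in control atria and 19.0, 18.6 and 21.5 CPM in CUG960 atria, groups that did not overlap. The log2 fold change was -0.44 (SE 0.09) with an edgeR adjusted p of 0.0135. The call was lost without control V333 (adjusted p 0.0528 in edgeR), control V334 (0.0519), V119 (0.0606) or V120 (0.0588). In ventricles Pfn2 ranged from 25.7 to 33.1 CPM in controls and from 24.3 to 26.6 CPM in CUG960 mice, which overlapped (log2 fold change -0.21, SE 0.10, edgeR adjusted p 0.241). Pfn1 measured 90.03 to 93.4 CPM in control atria and 92.6 to 98.6 CPM in CUG960 atria, a log2 fold change of 0.08 (SE 0.06). Its ventricular values overlapped fully, at 117 to 132 CPM in controls and 111 to 142 CPM in CUG960 mice. Per kilobase of principal transcript, Pfn1 was 8.66 to 15.9 times as abundant as Pfn2 across the 12 libraries. The ratio was 3.73 to 6.87 with the longest transcripts, 4.69 to 8.62 with exon unions and 4.24 to 7.80 with the shortest coding transcripts.

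Neither beta-thymosin passed the edgeR test in either chamber. Tmsb4x, which had the highest group mean of the 10 genes per kilobase of principal transcript in every group, measured 211 to 292 CPM in control atria and 192 to 255 CPM in CUG960 atria (log2 fold change -0.11, SE 0.14). In ventricles it measured 257 to 308 CPM in controls and 213 to 252 CPM in CUG960 mice, without overlap (log2 fold change -0.28, SE 0.09), and had an edgeR adjusted p of 0.0928, while DESeq2 gave 0.0437. Tmsb10 had the widest spread of the 10 genes in CUG960 atria, with a coefficient of variation of 24.1% and values of 35.4, 30.3 and 21.5 CPM in V119, V120 and V123. Its groups overlapped in both chambers.

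For none of the 9 genes other than Dstn did the difference between the ventricular and the atrial change pass the test (edgeR interaction test, where 1.38% of all genes tested passed), 1 had an unadjusted p under 0.05, Cap2, and DESeq2 also called 0. Levels did differ between chambers within a genotype. In control hearts 4 of the 9 differed, where 55.7% of all genes tested did: Cfl2, Wdr1 and Pfn1 were higher in ventricles and Cap2 was higher in atria. The log2 differences, ventricles minus atria, were 0.32 for Cfl2 (SE 0.07), 0.45 for Wdr1 (SE 0.06), 0.46 for Pfn1 (SE 0.07) and -0.52 for Cap2 (SE 0.06), with edgeR adjusted p of 0.00465, 3.84e-04, 4.36e-04 and 1.32e-04. In CUG960 hearts 5 of the 9 differed, where 54.2% of all genes tested did: the same 4, in the same directions, and Pfn2, which was higher in ventricles by 0.40 on the log2 scale (SE 0.08, edgeR adjusted p 0.00337). Tmsb10 was lower in CUG960 ventricles than in CUG960 atria by an edgeR adjusted p of 0.0256 with the mouse as a block, and 0.073 without it. It also passed there in DESeq2 (0.0279), with no filter on low counts (0.0185) and without V123 (0.0111). In controls its adjusted p was 0.0841 in edgeR, 0.0476 with no filter on low counts and 0.0279 without V333. The chambers share their mice, and Dstn is shown for these comparisons without a test.

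**Figure D4:**
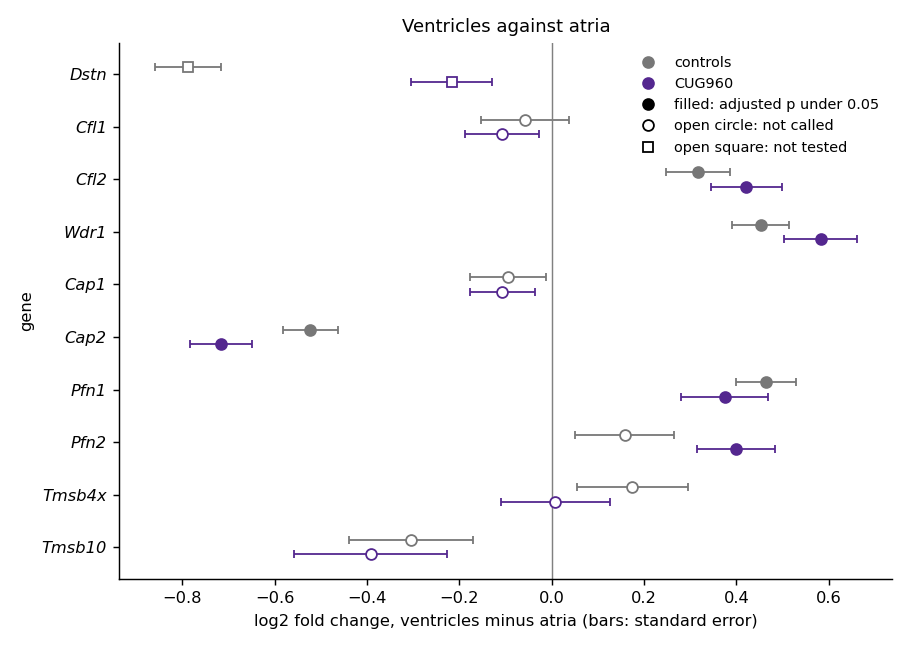
Log2 fold change of each gene in ventricles against atria, within controls (grey) and within CUG960 mice (purple), with bars of 1 standard error. Filled circles passed an adjusted p of 0.05, open circles did not, and open squares (Dstn) were not tested; Dstn moves from -0.79 in controls to -0.22 in CUG960, and Cap2 is lower in ventricles in both genotypes.

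Per kilobase of principal transcript, the order of the 10 genes in control atria ran Tmsb4x, Dstn, Pfn1, Cfl2, Cap2, Cfl1, Tmsb10, Wdr1, Cap1 and Pfn2, from 327.3 to 11.4 CPM per kilobase. Cap2 overlapped Cfl2 and Tmsb10 overlapped Cfl1 in that order, and the other neighbours did not overlap. In control ventricles Dstn came after Tmsb4x, Pfn1 and Cfl2, at 70.2 ± 3.09 CPM per kilobase. In CUG960 mice only Tmsb4x was ahead of it in either chamber by this length, with Dstn at 238 ± 20.2 CPM per kilobase in atria, where it overlapped Tmsb4x, and at 203 ± 11.8 in ventricles, where it did not. The order depends on the length taken. With exon unions Dstn, at the same levels, came before Tmsb4x in CUG960 atria (170.2 CPM per kilobase for Tmsb4x) and CUG960 ventricles (169.7), and with the shortest coding transcripts Cfl1, Cap2 and Pfn1 as well as Tmsb4x came before Dstn in control atria, and Pfn1 (203.8) stood beside Dstn (203.3) in CUG960 ventricles.

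Other parts of the actin machinery were read from 10 lists of genes, whose counts stand beside the 14.6% of all genes tested that passed in atria and the 9.94% in ventricles, and nothing particular to a list is read from them. Among the coronins and glia maturation factors, which act with ADF/cofilin at filament branches and sides, 3 of 9 fell and 0 rose in atria (14.6% of all genes passed), and 2 of 9 fell and 0 rose in ventricles (9.94%). Coro6, a coronin of striated muscle, fell from 110 ± 3.26 to 62.2 ± 4.02 CPM in atria (log2 fold change -0.83, SE 0.06) and from 203 ± 9.47 to 139 ± 12.5 CPM in ventricles (-0.55, SE 0.09). Coro2b fell in both chambers at a low level, from 2.93 ± 0.01 to 1.75 ± 0.43 CPM in atria and from 8.41 ± 0.51 to 6.21 ± 0.39 CPM in ventricles. Coro1c fell in atria (-0.39, SE 0.07). In edgeR fits without 1 mouse the calls for Coro6 and Coro1c held each time, and that for Coro2b was lost in 4 of 6 fits in atria and 5 of 6 in ventricles. The median log2 fold change of the list was -0.10 in each chamber against -0.01 over all genes tested.

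Of the 12 kinases and phosphatases that set ADF/cofilin phosphorylation, 3 fell and 0 rose in atria, where 14.6% of all genes passed, and 0 changed in ventricles in edgeR, where 9.94% of all genes passed, 2 had an unadjusted p under 0.05 and DESeq2 called 2 higher (Tesk2 and Pak4). The atrial 3 were the kinases Limk1 (log2 fold change -0.39, SE 0.09) and Tesk1 (-0.32, SE 0.09), which phosphorylate the serine shown above, and the phosphatase Ssh2 (-0.47, SE 0.08), which removes that phosphate. Ssh2 fell from 122 ± 3.13 to 87.8 ± 10.2 CPM. Its edgeR call held whichever mouse was left out, and those for Limk1 and Tesk1 were each lost in 4 of 6 such fits. Protein phosphorylation was not measured.

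Of the 16 capping and severing proteins, 1 rose and 2 fell in each chamber, beside 14.6% of all genes in atria and 9.94% in ventricles. Capza1, a subunit of the barbed-end capping protein, fell in both, from 25.3 ± 0.86 to 21.9 ± 0.52 CPM in atria and from 24.9 ± 1.29 to 19.2 ± 1.49 CPM in ventricles. Scin, the calcium-dependent severing protein scinderin, rose in ventricles from 1.42 ± 0.11 to 4.31 ± 0.39 CPM (log2 fold change 1.60, SE 0.14). Eps8, a barbed-end capper, rose in atria (0.44, SE 0.10), where Svil, the membrane-linked supervillin, fell (-0.37, SE 0.06). The edgeR calls for Scin and Svil held whichever mouse was left out, that for Eps8 was lost in 4 of 6 such fits, and that for Capza1 in all 6 in atria and in 5 in ventricles. The medians of the list were -0.10 in atria and 0.02 in ventricles.

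The Arp2/3 complex, which starts branches, had 1 of 10 subunits up and 1 down in atria and 0 changed in ventricles in edgeR, where 3 had an unadjusted p under 0.05 and DESeq2 called 1 higher (Actr3b). Actr3b rose in atria from 15.8 ± 0.85 to 25.4 ± 1.75 CPM, and Arpc1b fell from 52.4 ± 0.89 to 40.1 ± 5.04 CPM. Among 11 activators of the complex, 2 rose and 3 fell in atria and 2 rose and 0 fell in ventricles. Cttn, the branch-stabilizing cortactin, rose in both, from 88.7 ± 4.75 to 110 ± 4.39 CPM in atria and from 69.6 ± 3.10 to 87.8 ± 4.31 CPM in ventricles. Wasf1, a WAVE protein, rose in both at a low level, from 2.43 ± 0.20 to 4.395 ± 0.66 CPM in atria and from 0.51 ± 0.05 to 1.504 ± 0.05 CPM in ventricles. Wipf1 and Wipf2 fell in atria (log2 fold changes -0.39 and -0.37). With 1 mouse left out, the edgeR calls for Actr3b, Wasf1 and Wipf1 held, those for Arpc1b and Wipf2 were each lost in 4 of 6 fits, and that for Cttn in 3 of 6 in atria and 4 of 6 in ventricles.

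Of 13 formins tested, which lengthen unbranched filaments, 2 rose and 0 fell in atria (Fmnl2, 0.67, and Diaph3, 0.56 on the log2 scale), and 0 rose and 2 fell in ventricles in edgeR (Fhod1, -0.50, and Fmnl1, -0.37), where DESeq2 also called Fhod3 higher. Of 7 tropomodulins and leiomodins, which bind the pointed ends of thin filaments, Tmod2 fell in atria (-0.46), and Lmod1 (-0.75) and Tmod4 (-0.71) fell in ventricles. None of the 6 actin genes changed in either chamber in edgeR, with 3 at an unadjusted p under 0.05 in atria and 1 in ventricles, and DESeq2 called 1 lower in each (Actc1 in atria, Acta1 in ventricles). Of the other profilins and beta-thymosins, Pfn4 rose in both chambers, from 2.50 ± 0.02 to 5.08 ± 0.69 CPM in atria and from 3.13 ± 0.26 to 5.36 ± 0.16 CPM in ventricles. Tmsb15b2 rose in atria at a very low level, from 0.14 ± 0.02 to 0.29 ± 0.01 CPM. With 1 mouse left out, the edgeR calls for Fmnl2, Tmod4 and Pfn4 held, those for Diaph3, Fhod1, Fmnl1, Tmod2 and Lmod1 were each lost in 5 of 6 fits, and that for Tmsb15b2 in all 6.

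Of 21 regulators and targets of serum response factor and its MRTF coactivators, which respond to the pool of free actin, 2 rose and 5 fell in atria and 1 rose and 3 fell in ventricles, where 14.6% and 9.94% of all genes tested passed. The median log2 fold change was -0.50 in atria and -0.17 in ventricles against -0.01 over all genes tested. Control atrium V334 stood apart in 4 members named after their values were seen: Fos was at 113 CPM there against 2.92 and 2.23 CPM in V327 and V333, Fosb at 32.5 against 0.51 and 0.87, Egr1 at 131 against 15.4 and 13.99, and Cyr61 at 410 against 69.1 and 22.7. Without V334 the atrial median of the list was -0.30, with 1 gene up (Fhl2) and 5 down, and Tagln no longer passed in edgeR. In edgeR, leaving out 1 mouse gave 1 or 2 up and 4 to 7 down in atria, and 0 or 1 up and 1 to 4 down in ventricles. The genes named next are those with the largest changes, not those whose calls held most often. The ventricular median then ran from -0.24 without control V333 to -0.07 without control V327. Fhl2, a LIM-domain protein abundant in ventricles, rose in atria from 71.1 ± 3.10 to 151 ± 8.73 CPM (1.09, SE 0.07), and Fhl1 fell there from 245 ± 61.1 to 132 ± 11.5 CPM (-0.89, SE 0.17), a call lost without V119 (adjusted p 0.0588 in edgeR). Tagln, a smooth muscle actin-binding protein, rose in atria (1.21, SE 0.31) and fell in ventricles (-0.63, SE 0.17), and in edgeR each call was lost in 4 of the 6 fits without 1 mouse, with adjusted p up to 0.113 in atria and 0.143 in ventricles. Myocd, the myocyte coactivator of serum response factor, rose in ventricles (0.61, SE 0.14), but the edgeR call was lost in 5 of the 6 fits without 1 mouse, with adjusted p up to 0.101.

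**Figure D5:**
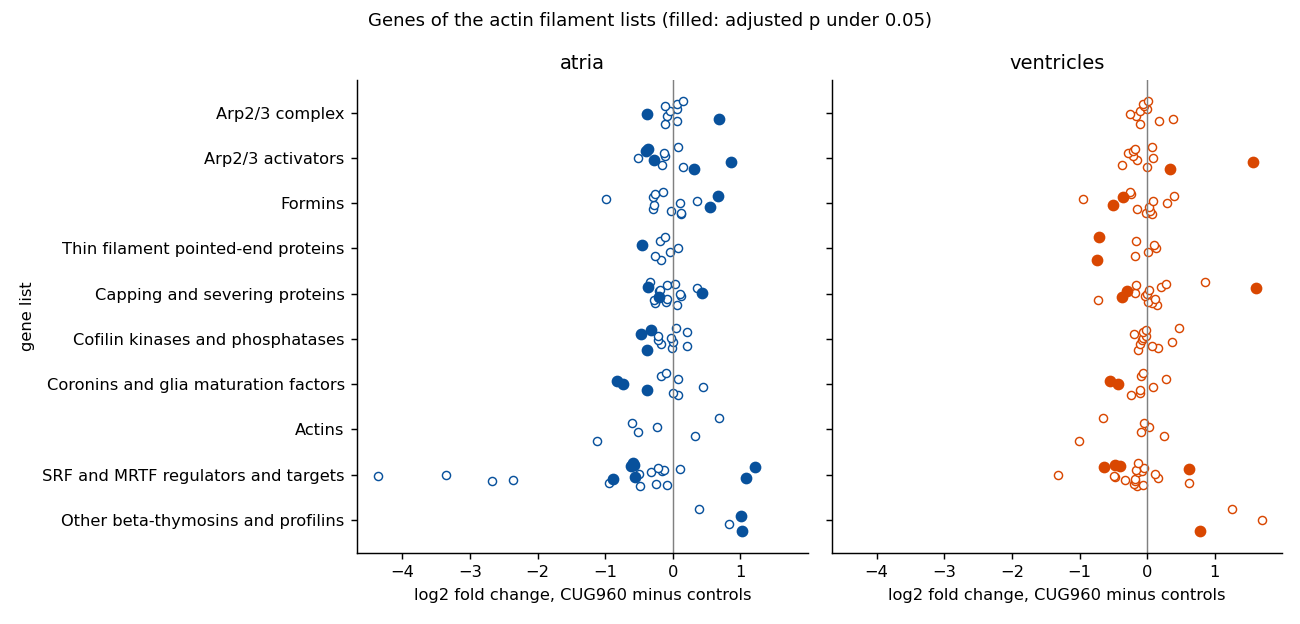
Log2 fold change in CUG960 mice against controls for every tested gene of the 10 actin lists, in atria (left) and ventricles (right); filled points passed an adjusted p of 0.05. The filled ventricular points furthest to the right are Scin at 1.60 and Wasf1 at 1.57.

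Markers of the other cell types of the heart moved as well, and since many of these 10 genes are expressed outside heart muscle cells, their values belong beside the falls above. In bulk tissue fewer cells of a type and less RNA per cell cannot be told apart. Of 10 endothelial markers 4 fell in atria and 5 in ventricles, and 0 rose in either, beside 14.6% and 9.94% of all genes tested that passed in atria and ventricles. Their summed level went from 892 to 1111 CPM in controls to 728 to 859 CPM in CUG960 atria, and from 922 to 1060 CPM to 739 to 780 CPM in ventricles, without overlap, and the most abundant was Vwf in atria and Kdr in ventricles. Pecam1 fell from 234 ± 13.8 to 144 ± 21.2 CPM in atria and from 180 ± 6.92 to 124 ± 0.83 CPM in ventricles. Of 10 fibroblast markers 5 fell in atria and 0 changed in ventricles in edgeR (3 at an unadjusted p under 0.05, and Pdgfra lower in DESeq2). Their sum was 2508 to 2892 CPM in control atria and 2066 to 2426 CPM in CUG960 atria, with Dcn the most abundant, and Postn fell there from 77.3 ± 4.24 to 46.5 ± 5.62 CPM. Of 10 smooth muscle and pericyte markers 1 rose and 3 fell in atria and 6 fell in ventricles, where the sum went from 1266 to 1370 CPM in controls to 1009 to 1072 CPM in CUG960 mice, with Rgs5 the most abundant. None of 12 leukocyte markers changed in either chamber in edgeR, with 1 at an unadjusted p under 0.05 in each, and DESeq2 called Cd79a lower in atria and Ptprc lower in ventricles. None of 6 mesothelial markers changed in edgeR, with 1 at an unadjusted p under 0.05 in atria and 2 in ventricles, and DESeq2 called Krt19 lower in atria and Wt1 lower in ventricles. Of 6 adipocyte markers 3 fell in ventricles, Plin1, Fabp4 and Cfd, and 0 changed in atria in edgeR, where 1 had an unadjusted p under 0.05 and DESeq2 called Fabp4 lower. Leaving out 1 mouse lost many of these edgeR calls. Of the 6 ventricular smooth muscle and pericyte calls, 2 (Rgs5 and Smtn) held without control V327, 3 without control V334, V119 or V123, 4 without V120 and 6 without control V333. Of the 4 atrial ones, 0 held without control V333, 1 without control V334, V119 or V120, 2 without V123 and 3 without control V327. Of the 5 ventricular endothelial calls, 3 held without control V327, V119, V120 or V123, and of the 5 atrial fibroblast calls, 3 held without control V333, control V334 or V120, while the 4 atrial endothelial calls held each time. Of the Schwann cell and neuron markers, 6 of 8 tested in atria and 5 in ventricles, Ncam1 rose in both chambers and Uchl1 rose in ventricles. Beside these, 14.6% and 9.94% of all genes tested passed in atria and ventricles. The list's median log2 fold change was 0.10 in atria but -0.41 in ventricles, against -0.01 over all genes tested. No rise of the cell type is therefore read from these genes. With 1 mouse left out, the edgeR calls for Pecam1, Postn, Plin1, Cfd and Uchl1 held, as did that for Ncam1 in atria, while Ncam1 in ventricles was lost in 4 of 6 fits and Fabp4 without control V327 (adjusted p 0.0555). The part of these cells in the levels of Wdr1, Cap1 and Pfn2 was not tested.

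The markers of heart muscle and of each chamber were high in the tissues labelled so. The summed CPM of the heart muscle markers was 4.84% higher in CUG960 atria, without overlap, and 4.76% higher in CUG960 ventricles, with overlap. The mean of Myh6, the most abundant, rose by more than the mean sum in both chambers. Myh6 was at 25506 CPM in control atria and 29796 in CUG960 atria, beside mean sums of 45097.6 and 47280.6 CPM. In ventricles it was at 23311.4 and 27649.4 CPM, beside mean sums of 62020.1 and 64971 CPM. The list's median log2 fold change was -0.17 in atria and -0.05 in ventricles. No general rise of these markers is therefore read from the sums. In edgeR 2 of 10 rose and 2 fell in atria, and 1 rose and 1 fell in ventricles. Ryr2 fell in both. Beside these, 14.6% and 9.94% of all genes tested passed in atria and ventricles. The edgeR call for Ryr2 was lost in 5 of the 6 fits without 1 mouse in atria and in 2 in ventricles. The calls for Myh6 in atria and Mybpc3 in ventricles, which rose, were each lost in 5 of 6 such fits. In atria the call for Pln, which rose, was lost in 3, and that for Tnnc1, which fell, held each time. Atrial markers summed to 21529 to 28572 CPM in atria and 137 to 379 CPM in ventricles, with Nppa the most abundant. Ventricular markers, led by Myl2, summed to 18.4 to 57.5 CPM in atria and 13820 to 17396 CPM in ventricles. In CUG960 atria the atrial markers summed 18.0% lower than in controls, without overlap (21529 to 23883 against 26759 to 28572 CPM). Most of that difference was Nppa, at 15892.3 CPM on average in control atria and 11870.5 in CUG960 atria, beside mean sums of 27863.5 and 22838.5 CPM. The median log2 fold change of the 8 atrial markers in atria was 0.01, so no general fall of these markers is read from the sum. In CUG960 ventricles the atrial markers summed 66.2% higher than in controls, with overlap (139 to 379 against 137 to 212 CPM). Nppa fell in atria (log2 fold change -0.42, SE 0.07) and rose in ventricles (1.301, SE 0.31), and Gja5 fell in atria (-1.51, SE 0.12). The ventricular call for Nppa was lost in edgeR without control V327 (adjusted p 0.104), control V333 (0.0903), V120 (0.105) or V123 (0.063), and the estimate without V120 was 0.93. Ventricle V123 had more of other atrial markers than V119 and V120, with Myl7 at 55.9 CPM against 0.19 and 0.30, Sln at 18.5 against 0.21 and 0.34, and Myl4 at 86.3 against 4.35 and 6.13, while control ventricles had 4.98 to 19.3 CPM of Myl7. Nppa itself was at 86.6, 224 and 151 CPM in V119, V120 and V123 and 48.6 to 84.8 CPM in controls. The part of atrial tissue in these ventricles was not tested. Of the ventricular markers Hey2 fell in both chambers (-0.67 and -0.52) and Irx4 rose in ventricles (0.36), calls that were each lost in 5 of the 6 edgeR fits without 1 mouse.

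The genes whose pattern was most like that of Dstn were H2afy2, Efl1, Adap1, Erc2 and Cyp4f16, with Pearson r of 0.990, 0.973, 0.972, 0.971 and 0.970 over the 12 libraries, on log2 CPM and among 13064 genes. H2afy2, which encodes a macroH2A histone, was at 9.55 ± 0.77 and 18.7 ± 0.03 CPM in control and CUG960 atria and at 5.33 ± 0.53 and 16.7 ± 1.85 CPM in control and CUG960 ventricles, the same order of groups as Dstn. The 12 libraries fall into 4 groups and share mice between chambers, so such values describe the group means more than separate samples. Of the other 9 genes, Wdr1 (r = -0.82), Pfn2 (-0.75) and Cfl2 (-0.65) ran most against Dstn, and Cap2 alone had an r above 0, at 0.19.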

How the data were processed

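The authors made poly(A)-selected, stranded libraries, aligned paired-end reads to GRCm38 and estimated the expected count of each gene with RSEM (version 1.3.1, per the labels); they deposited 1 table of expected counts, unscaled and unfiltered, all whole numbers. The submitters' notes also name DESeq2. The genes, lists and tests were chosen with earlier results of these data known. Counts were tested with edgeR 4.0.16 (R 4.3.3): filterByExpr, TMM, quasi-likelihood F test, Benjamini-Hochberg over all genes tested, called at adjusted p under 0.05 and counted again at a fold change of at least 1.5. Genotypes were compared within each chamber, chambers within each genotype, and the changes by an interaction term. CPM used TMM factors over the 12 libraries; lengths and positions came from GENCODE M21, copies from BLAST+ 2.17.0 at 95% identity, promoters from RefSeq. Mice are separate animals, 3 per genotype. For genotypes compared within a chamber, p-values measure the spread between mice. The main chamber and interaction fits held no mouse term and treated the 2 chambers of a mouse as separate samples, so their p-values ignore the pairing. Named list genes passed the threshold in a chamber and had the 4 largest fold changes of their list; the likeness to Dstn used genes of at least 1 CPM, log2 with a prior count of 2. Atria and ventricles of a mouse are paired: residual correlations were 0.03 to 0.13 within mice and -0.14 to 0.05 between mice. Steps were tested on simulated data. Alternatives were DESeq2 1.42.0, RLE and upper quartile factors, nuclear genes only, other filters, copies summed, a single fit of 12 libraries, the mouse as a block, leaving out each mouse, and other gene lengths. The result of 1 marker gene is not reported here.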

Additional observations from a re-analysis of the deposited data

Results flagged for a closer look

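The change differed between chambers, by the interaction test in edgeR at adjusted p under 0.05, for 5 of 189 genes of the lists and cell markers (2.65%), where 1.38% of all genes tested passed. This fit did not take the mouse as a block, although atria and ventricles came from the same mice. Scin changed by 1.24 more in ventricles than in atria on the log2 scale (adjusted p 0.00856 in edgeR), and Svil by 0.57 more (0.0379). Fhl2 changed by -0.94 (adjusted p 0.00226 in edgeR), since it rose in atria. Tagln, which rose in atria and fell in ventricles, changed by -1.85 (adjusted p 0.0445 in edgeR), and Nppa, which fell in atria and rose in ventricles, by 1.72 (0.0494). When 1 mouse was left out, Fhl2 passed the edgeR interaction test each time. Scin missed it without control V327 (adjusted p 0.0565) and V119 (0.0601). Svil passed only without control V334, and was at 0.0693 to 0.16 otherwise. Tagln missed it without control V333, control V334, V119 or V123 (0.131 to 0.169), and Nppa without control V327, control V333, V120 or V123 (0.154 to 0.239). The cause of these differences was not tested. With 3 mice a group, single outlying samples were not tested.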

How the results depend on the processing

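Of 640 fold changes of the 10 genes under alternatives, 593 kept their direction and their side of the threshold. Of the rest, 16 lost the threshold, 13 gained it and 18 changed sign. All sign changes were in estimates that passed in neither setting. The 640 include the Dstn comparisons that use its ventricular libraries, which are a description only, so these counts lend no support to its ventricular rise. The rise of Dstn in atria passed in all 14 alternatives (log2 fold change 0.92 to 1.04), as did the atrial fall of Wdr1 (-0.52 to -0.47). In atria 4 genes changed; leaving out 1 mouse gave 2 to 3, DESeq2 gave 5 (adding Cfl2), no filter on low counts and a single fit of 12 libraries each gave 3 (without Cap1, adjusted p 0.0532 and 0.0665 in edgeR), and the 1.5-fold limit gave 1. In ventricles 1 of 9 changed; DESeq2 gave 2 (adding Tmsb4x), a single fit of 12 libraries gave 3 (adding Cap1 and Cap2), the 1.5-fold limit gave 0 and leaving out 1 mouse gave 0 to 2. Between chambers the 1.5-fold limit left 0 of 4 genes in controls and 1 of 5 in CUG960. With the mouse as a replicate block, which follows the pairing of chambers, 0 genes passed for the interaction, 4 in controls and 6 in CUG960 (adding Tmsb10). Sign changes when 1 mouse was left out ran, in atria, from -0.0341 to 0.0342 for Cap2, -0.22 to 0.0152 for Tmsb4x and -0.31 to 0.0288 for Tmsb10; in ventricles from -0.13 to 0.0528 for Pfn1; for the interaction from -0.18 to 0.0415 for Cfl1, -0.0653 to 0.0510 for Cap1 and -0.27 to 0.0950 for Tmsb10; and between chambers from -0.15 to 0.0737 for Cfl1 in controls and -0.0702 to 0.0668 for Tmsb4x in CUG960. Tmsb4x between chambers in CUG960 was also -0.0283 with upper quartile factors, -0.00727 with nuclear genes only and -0.0193 with at least 10 counts in every library. The choice of the shortest coding transcript was made after seeing the annotation, and leaving out mice for genes of the lists and the order per kilobase under other lengths after seeing the data; exon unions gave Dstn shares of 51.6% and 70.8% in control and CUG960 atria and 35.4% and 64.2% in ventricles. The cause of these shifts was not tested. With 3 mice a group, a change that missed the threshold was not detectable here, not shown to be absent.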
